A study of Mus musculus with 16 samples.

Results

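The comparison described here asked whether loss of Fam134b changed how far each gene moved when C2C12 myoblasts became myotubes. C2C12 is a mouse cell line that grows as single myoblasts and fuses into multinucleated myotubes once the cells are confluent. Messenger RNA was sequenced from 16 samples, 4 each of WT myoblasts, WT myotubes, Fam134bKO myoblasts and Fam134bKO myotubes, without a treatment other than differentiation. The knockout cells had received Cas9 and guides against Fam134b by lentivirus followed by antibiotic selection. The sources used here do not state whether these cells are 1 clone or a pool, so that Fam134b loss and other features of the selected line cannot be told apart. For every gene the change from myoblasts to myotubes in Fam134bKO cells minus the same change in WT cells, the interaction, was computed on log2 values. The comparison covered the 10767 genes, of 31053 in the table, that reached 10 normalized counts in 4 or more of the 16 libraries. Genes whose interaction passed the test were sorted by whether their change was stronger, weaker, absent or reversed in knockout cells, or called there alone.

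During myogenesis, the transcription factors Myod1 and Myog bind short DNA motifs called E-boxes and switch on the genes of the contractile apparatus while the cells leave the cell cycle. Fusion then needs the membrane proteins myomaker and myomixer. Fam134b (Retreg1) is a receptor of ER-phagy, the autophagic degradation of portions of the endoplasmic reticulum (ER), the organelle that muscle cells turn into the sarcoplasmic reticulum. Atf4 is a transcription factor of the integrated stress response that drives amino acid synthesis and transport genes.

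Fam134b itself checked the labels. Fam134b had normalized counts of 214, 251, 213 and 149.7 in WT myoblasts and 287, 146, 263 and 232 in WT myotubes, against 26.2, 24.9, 35.6 and 23.4 in Fam134bKO myoblasts and 31.9, 56.9, 50.4 and 27.97 in Fam134bKO myotubes. All 8 knockout libraries were below all 8 WT libraries, and the remaining counts do not show the edit itself. Its change with differentiation was 0.14 in WT and 0.54 in Fam134bKO, with an interaction of 0.40 (SE 0.36, adjusted p = 0.61) in limma, so it was not called. Reads were counted per gene, so that the isoforms Fam134b1 and Fam134b2 were not told apart and a change in either could be hidden. Summed over 10 myotube markers, WT myoblasts held 1019 to 1812 normalized counts and WT myotubes 17469.8 to 26971, and Fam134bKO myoblasts held 24.2 to 42.5 and Fam134bKO myotubes 9373 to 12747, so that every myotube library was above every myoblast library. Of the 5 myoblast markers, Pax7 had at most 5 reads in any WT library and 0 in Fam134bKO, and the sum of the 5, most of it vimentin, was 14609 to 23276 in Fam134bKO myoblasts and 11481 to 14391 in WT myoblasts. The members did not move together. Group means of Des and Myod1 were 132 and 9.62 in Fam134bKO myoblasts, below 516 and 282 in WT myoblasts. Those of Myf5 and vimentin were 114 and 19479, above 71.1 and 12711 in WT myoblasts.

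Libraries held between 1484750 and 3287461 reads on genes. Replicates 4 and 2 of Fam134bKO myotubes were the shallowest, with 1484750 and 1790524 reads, and their values deviated from the group mean by a root mean square of 0.616 and 0.691 on the log2 scale, against 0.260 to 0.491 in the other 14 libraries. Without those 2 libraries, a setting added after the data were seen, 396 genes were called in place of 371. Of 4 endothelial markers Cdh5 and Tek were at 0 in all 16 libraries, and Pecam1 and Kdr had at most 2 reads. Of 5 leukocyte markers Ptprc and Adgre1 were at 0, while Csf1r reached 16 reads in a library, Cd68 13 and Lyz2 7, and their sum was 3.996 to 26.1 normalized counts in Fam134bKO myotubes and 7.43 to 17.3 in WT myotubes. Of 5 adipocyte markers Adipoq and Plin1 were at 0 and Fabp4 had at most 1 read, while Cebpa reached 88 reads in WT myoblasts and Pparg 30 in Fam134bKO myoblasts. Among neural and glial markers Sox10 was at 0, Gfap had at most 2 reads, and Mbp reached 31 reads and Tubb3 45, both in Fam134bKO myoblasts. The 4 smooth muscle markers, mostly Acta2, summed to 7983 to 9163 in WT and 7712 to 13987 in Fam134bKO myoblasts. In myotubes they summed to 5478 to 9351 in WT and 5441 to 13142 in Fam134bKO. Sox9 and Runx2 made up nearly all of 6 cartilage and bone markers. That sum was 438 to 495 in WT and 658 to 1103 in Fam134bKO myoblasts, and 295 to 491 and 381 to 885 in myotubes. The sum of 5 fibroblast and progenitor markers was 77.5 to 122 for WT myoblasts and 95.4 to 157 for WT myotubes, and 459.9 to 873 for Fam134bKO myoblasts and 268 to 376 for Fam134bKO myotubes. In Fam134bKO myoblasts nearly all of that sum was Ly6a (Sca-1), a surface protein with 25.6% of its 3′ sequence shared with other genes, at a group mean of 691 there and 49.5 in WT myoblasts, while Dpt was near 0 throughout. Cd34 went the other way, with a mean of 3.84 in Fam134bKO and 43.4 in WT myoblasts, and 23.5 and 50.1 in myotubes. Pdgfra had means of 6.59 in Fam134bKO and 4.73 in WT myoblasts, and Pi16 at most 5 reads in any library. The part of Ly6a in the results was not tested. The study's methods describe its experiments as biologically replicated, while the sample labels name no culture for any library, and the p-values measure the spread between these samples.

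Differentiation moved many of the same genes the same way in both genotypes. WT myotubes differed from WT myoblasts in 2474 genes, 1488 higher (13.8% of genes tested) and 986 lower (9.16%). Fam134bKO myotubes differed from Fam134bKO myoblasts in 3591 genes, 1860 higher (17.3%) and 1731 lower (16.1%). Across the 10767 genes, which are not independent replicates, the WT and the Fam134bKO change had a Pearson r of 0.735 and a Spearman rho of 0.639. A total of 1566 genes were called in both genotypes in the same direction, and the interaction called 125 of them. Of 891 genes called in WT and not in Fam134bKO the interaction called 52, and of 2008 called in Fam134bKO and not in WT it called 177, so that for most genes past the threshold in a single genotype no difference between genotypes was shown.

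The interaction itself was called for 371 genes (3.45% of those tested), 212 with a more positive change in Fam134bKO (1.97%) and 159 with a more negative one (1.48%), at a Benjamini-Hochberg adjusted p under 0.05 in limma. At an unadjusted p under 0.05 it held 1876 genes. Sorted by the change in each genotype, 114 of the 371 changed in the same direction and further in Fam134bKO, 11 changed in the same direction and less, and 17 moved in opposite directions. Another 52 changed in WT with no called change in Fam134bKO, and 177 changed in Fam134bKO with no called change in WT. Leaving out single libraries gave 231 to 521 called genes (231 without Fam134bKO myoblasts replicate 1, 242 without its replicate 4 or without WT myoblasts replicate 2, 245 without WT myotubes replicate 3). In each of those fits the 371 interactions kept their direction, and 198 of the 371 genes were called in all 16.

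**Figure D1:**
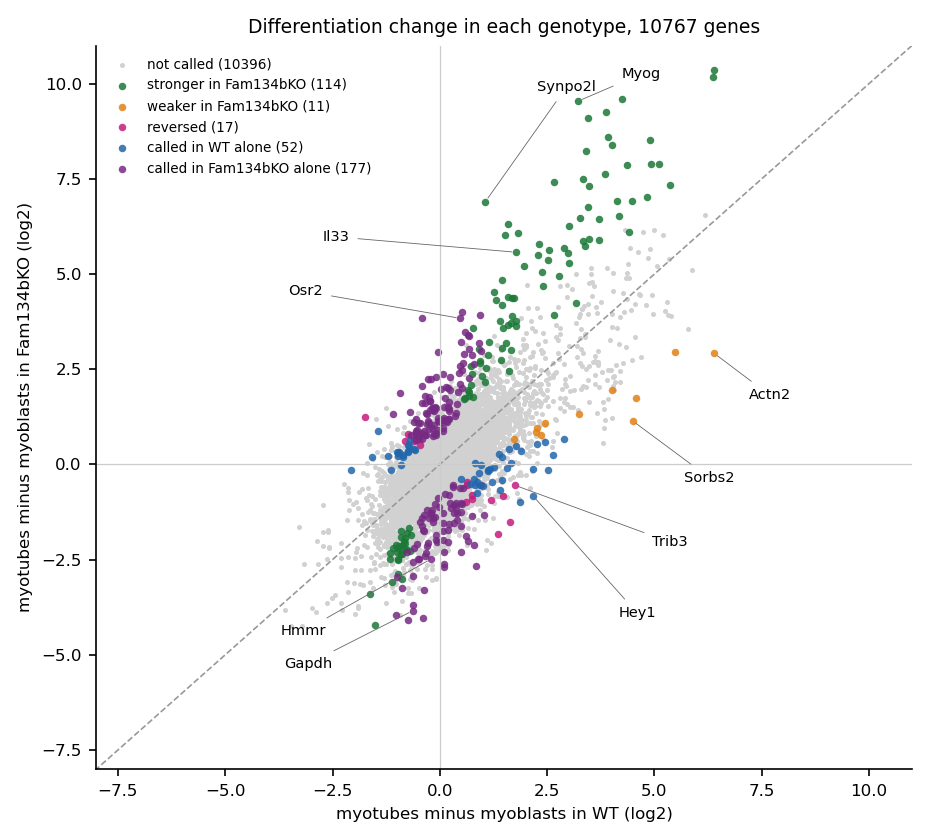
Change from myoblasts to myotubes in WT (x axis, log2) against that in Fam134bKO (y axis, log2), 1 point per gene. Grey points are the 10396 genes not called by the interaction, colours give the 5 classes of the 371 called genes, and the dashed line marks equal change. The green points at the upper right are genes that rose further in Fam134bKO, muscle genes such as Myog and others such as Il33. The pink points above or below 0 on the y axis against their side on the x axis are genes that moved in opposite directions.

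The largest interactions were muscle genes whose rise was stronger in Fam134bKO from knockout myoblasts that held almost none of their RNA. Of the 114 genes with a stronger change, 86 rose, and 72 of these were lower in Fam134bKO than in WT myoblasts, a stage at which 1697 genes (15.8% of those tested) differed between genotypes. Their median level in Fam134bKO myoblasts was 3.42% of that in WT myoblasts, and in Fam134bKO myotubes 44.7% of that in WT myotubes. In 36 of the 86 no library of Fam134bKO myoblasts held more than 3 reads. In myotubes, where 2521 genes (23.4%) differed between genotypes, 52 of the 86 were still lower in Fam134bKO, 18 were higher and the others did not pass the test. The interaction equals the genotype difference in myotubes minus that in myoblasts in the same samples. The choice of genes by it therefore partly sets these counts. In bulk RNA, fewer differentiating cells and less RNA per cell cannot be told apart.

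Myog, the factor that commits myoblasts to differentiation, had normalized counts of 149, 105, 92.1 and 109.6 in WT myoblasts and 1347, 969, 915 and 1043 in WT myotubes, against 0 in all 4 libraries of Fam134bKO myoblasts and 806, 487, 940.1 and 829 in Fam134bKO myotubes. No read of it was found in the knockout myoblasts, while all 4 knockout myotube libraries were above every WT myoblast library and their range overlapped that of WT myotubes. The WT mean rose 9.39-fold, and the Fam134bKO mean rose at least 299.7-fold against a floor of 3 reads per library; counting intervals and floors below cover counting error only. The interaction on log2(normalized count + 1) was 6.32 (SE 0.30, adjusted p = 1.3e-11). With values under 3 reads raised to 3 reads it was 4.49, below 5.74 for Synpo2l and 5.64 for Mylpf, the next largest. That of Tmem8c, which encodes myomaker, was then 4.01 in place of 5.39. The size and rank of such interactions thus depend on how values near 0 are treated. Myod1, the factor that precedes Myog, was low but present in knockout myoblasts.

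Myod1 had normalized counts of 375, 236, 245 and 270.0 in WT myoblasts and 908, 632, 770.4 and 740.1 in WT myotubes, against 15.7, 5.81, 6.07 and 10.8 in Fam134bKO myoblasts and 271, 439, 219.5 and 238 in Fam134bKO myotubes. Its mean rose 2.71-fold in WT and 30.3-fold in Fam134bKO, with an interaction of 3.39 (SE 0.37, adjusted p = 4.9e-06). In Fam134bKO myotubes it reached 38.3% of the WT myotube mean, about the level of WT myoblasts. Mef2a, a partner of these factors, also rose further in Fam134bKO (interaction 1.13). Tead4, a factor that acts on muscle genes through another motif, went the other way: it rose 5.53-fold in WT, had no called change in Fam134bKO (log2 change 0.60) and an interaction of -1.86 (SE 0.43, adjusted p = 0.017). Among 16 tested myogenic factors, 5 were called (31.3%, beside 3.45% of all genes tested), 4 of them more positive in Fam134bKO, with Tcf12, a bHLH partner of Myod1, as the last (0.82). The count of 5 fell to 3 without replicate 3 or 4 of Fam134bKO myoblasts, replicate 2 of WT myoblasts or replicate 3 of WT myotubes.

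Mylpf, the regulatory light chain of fast muscle myosin, had normalized counts of 1172, 1082, 916 and 872 in WT myoblasts and 12034, 8196, 14198 and 10250.1 in WT myotubes, against 3.4997, 5.81, 5.21 and 7.51 in Fam134bKO myoblasts and 2736, 4439, 3498 and 3355 in Fam134bKO myotubes. Synpo2l, a Z-disc protein, had normalized counts of 647, 729, 701 and 614 in WT myoblasts and 1462, 1545, 1337 and 1285 in WT myotubes, against 5.25, 4.15, 1.74 and 4.17 in Fam134bKO myoblasts and 524, 429, 597 and 689 in Fam134bKO myotubes. Both were below 8 normalized counts in every knockout myoblast library, and in myotubes all 4 knockout libraries lay below all 4 WT libraries. The mean of Mylpf rose 11.1-fold in WT and 637-fold in Fam134bKO (interaction 5.64, SE 0.29, adjusted p = 1.9e-11), and that of Synpo2l 2.09-fold and 146-fold (interaction 5.84, SE 0.29, adjusted p = 1.9e-11).

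The fusion proteins followed the same course. Tmem8c, the symbol the table uses for myomaker, had normalized counts of 204, 135, 126 and 115 in WT myoblasts and 1975, 1959, 2629 and 1867 in WT myotubes, against 0, 0, 0.868 and 0.834 in Fam134bKO myoblasts and 841, 865, 901 and 745 in Fam134bKO myotubes. No knockout myoblast library held more than 1 read of it. Its mean rose 14.5-fold in WT and 1971-fold (95% counting interval 546 to 16271, from 2 reads) in Fam134bKO (interaction 5.39, SE 0.32, adjusted p = 3.1e-10), and myomixer (Gm7325 in the table) rose 8.52-fold and 126-fold (95% counting interval 61.4 to 315, from 7 reads). Dysf, dysferlin, which repairs the muscle membrane, went the other way (interaction -1.33): it rose 1.82-fold in WT and not in Fam134bKO, whose myoblasts already held 214% of the WT level. The adhesion protein Cadm1 fell in WT and had no called change in Fam134bKO (interaction 1.33). These were the 4 called genes of 17 in the list of fusion and adhesion (23.5%, beside 3.45% of all genes tested). The count fell to 2 without replicate 1 of Fam134bKO myoblasts, replicate 1 or 3 of WT myoblasts, or replicate 3 or 4 of WT myotubes.

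Among 21 tested genes of the thick and thin filaments, 15 were called (71.4%, beside 3.45% of all genes tested), 14 of them more positive in Fam134bKO. The median change over all 21 was 3.85 in WT and 7.31 in Fam134bKO, beside -0.01 in WT and -0.02 in Fam134bKO over all genes tested. The called genes included myosins (Myh3 3.99, Myl1 3.84, Myl4 1.97), troponins of the fast and the slow fibre (Tnnc2 5.36, Tnni1 4.84, Tnnt1 4.25) and actins (Acta1 4.38, Actc1 3.81). The exception was Tpm2, beta-tropomyosin, which rose in WT by 1.12 and did not pass in Fam134bKO (-0.16). The myosin heavy chains Myh1, Myh4, Myh7 and Myh8 were not called, with interactions from -0.77 to 1.25. The 15 calls stayed at 15 in each fit without 1 library.

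Of 33 tested genes of the Z-disc, M-band and titin filament, 12 were called (36.4%, beside 3.45% of all genes tested), 10 more positive and 2 more negative. Titin (Ttn, interaction 4.75, SE 0.66, adjusted p = 1.1e-04) and Klhl40, which stabilizes thin filament proteins (4.51), were among the former. The median interaction of the list, 0.25, took the other sign in 3 of 29 alternative fits. In the list of the sarcoplasmic reticulum and triad 5 of 24 genes were called (20.8%), all more positive: the calcium pump Atp2a1 (2.98), Jsrp1 (2.66), the calcium channel subunit Cacng1 (2.07), the pump regulator Mrln (1.84) and the calcium buffer Casq2 (1.69), with 3 of the 5 left without replicate 1 of WT myoblasts, without replicate 4 of WT myotubes, or without the 2 shallow libraries, and Mrln not called in 20 of 31 alternative fits. At the neuromuscular junction 5 of 10 genes were called (50.0%), all more positive, among them the kinase activator Dok7 (4.71) and the acetylcholine receptor subunits Chrnd (3.26), Chrna1 (2.37) and Chrng (2.36). With values raised to 3 reads Chrnd fell to 1.79 (adjusted p = 0.005) and Chrng to 0.75 (adjusted p = 0.35), which ended the call of Chrng.

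Among 17 muscle metabolism genes, 4 were called as more positive and 2 as more negative (35.3% in all, beside 3.45% of all genes tested). With values raised to 3 reads the interaction of Ckm was 2.13 (adjusted p = 6.2e-04) in place of 3.504, and that of the oxidase subunit Cox8b 0.62 (adjusted p = 0.38) in place of 2.45, which ended its call. Myoglobin (Mb) rose 15.7-fold in WT and 913-fold (95% counting interval 312 to 4425, from 3 reads) in Fam134bKO, and the muscle creatine kinase Ckm 19.7-fold and 736-fold (95% counting interval 204 to 6079, from 2 reads). Of 17 genes of the IGF pathway and imprinted growth control, 4 were called (23.5%), all more positive. Igf2 (2.54, a gene with 65.5% of its 3′ sequence shared with other annotated genes), Igfbp5 (2.27) and the noncoding RNA H19 (1.31) started far lower in Fam134bKO myoblasts, with 0.806%, 4.22% and 8.16% of the WT level. With values raised to 3 reads Igf2, with 1 read in all 4 knockout myoblast libraries together, had an interaction of 0.93 (adjusted p = 0.17) and was no longer called. H19 was not called in 15 of 31 alternative fits and Igf1 in 11 of 31. Igf1 differed, starting at 233% of WT and ending at 692% of WT (interaction 1.65). The count of 4 fell to 2 without replicate 1 or 4 of Fam134bKO myoblasts, replicate 1 or 2 of WT myoblasts, or replicate 1 or 3 of WT myotubes.

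The sense in which these rises were stronger rests on the ratio scale. In normalized counts the knockout increase was the smaller one for 63 of the 86 rising genes and the larger one for 23. Mylpf gained 10159 normalized counts in WT and 3501 in Fam134bKO, and Myog gained 955 and 766. Over the other classes the sign was mostly the same on both scales, for 17 of 17 reversed genes, 10 of 11 weaker ones, 51 of 52 called in WT alone and 171 of 177 called in Fam134bKO alone. When values under 3 reads were raised to 3 reads, all 371 interactions kept their sign and 99 of the 114 stronger genes were still called.

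The promoters of the 3 stronger genes with the largest interactions for which a sequence was at hand are shown because E-boxes are the motif that Myod1 and Myog bind. They are the 200 bases before the start in RefSeq, GRCm38.p6, 5′ to 3′ on the gene's strand, with every CANNTG in capitals (the motif reads the same way on both strands in this form).
Myog, chr1:134289804-134290003, + strand: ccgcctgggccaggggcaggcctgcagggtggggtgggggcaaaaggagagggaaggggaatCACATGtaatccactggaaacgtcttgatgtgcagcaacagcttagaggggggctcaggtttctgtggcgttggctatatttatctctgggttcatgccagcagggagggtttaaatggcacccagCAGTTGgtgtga
Mylpf, chr7:127211408-127211607, + strand: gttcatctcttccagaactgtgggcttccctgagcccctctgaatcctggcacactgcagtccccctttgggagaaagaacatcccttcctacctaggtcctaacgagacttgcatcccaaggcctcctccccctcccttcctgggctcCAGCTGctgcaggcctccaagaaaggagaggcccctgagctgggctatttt
Synpo2l, chr14:20668355-20668554, - strand: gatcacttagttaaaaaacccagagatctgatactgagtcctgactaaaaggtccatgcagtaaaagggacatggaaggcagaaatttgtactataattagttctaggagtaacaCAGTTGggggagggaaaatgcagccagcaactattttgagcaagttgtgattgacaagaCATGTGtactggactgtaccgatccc
Among the 64 of 86 stronger rising genes with a RefSeq promoter of 300 bases (250 before and 50 after the start), 28 held CAGCTG (43.8%), beside 1281 of 8627 promoters of all tested genes (14.8%). Either of CACCTG and CAGGTG was in 28.1% beside 15.8%, any CANNTG, which includes these forms, in 85.9% beside 61.6%, and a form of the MEF2 site (CTA and TAG on either side of 4 bases) in 9.38% beside 2.96%. The search for any CANNTG was added after the data were seen. In the 74 promoters of genes that rose in Fam134bKO alone CAGCTG was in 21.6%, and in the 53 of genes that fell in Fam134bKO alone in 17%. Reversed genes that rose in WT held CAGCTG in 3 of 10 promoters (30%), genes called in WT alone in 17.8%, weaker genes in 12.5% and stronger falling genes in 5.88%. The MEF2 form was in 5 of 45 promoters of genes called in WT alone (11.1%), a larger share than in the stronger rising genes, and in 0 of 10 of the reversed genes that rose in WT. No share was counted for genes that rose in both genotypes without a called interaction. Whether the motifs go with the interaction or with rising muscle genes in general was therefore not tested. A match is a run of letters and not a site shown to be bound.

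Genes that moved in opposite directions were fewer, and they included amino acid and one-carbon enzymes and 3 of the Atf4 and Chop targets. Of the 17 reversed genes, 11 rose in WT and fell in Fam134bKO. All 11 were higher in Fam134bKO than in WT myoblasts, none was called higher in Fam134bKO myotubes, and 3 were lower there. Their choice by opposite changes and the interaction in the same samples partly sets these counts. Of the 30 tested genes of a list of Atf4 and Chop targets 7 were called (23.3%, beside 3.45% of all genes tested), all more negative in Fam134bKO. Trib3, Asns and Chac1 were reversed, Psph, Gpt2 and Pycr1 were called in WT alone and Shmt2 in Fam134bKO alone.

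Trib3, a pseudokinase that Atf4 and Chop induce, had normalized counts of 142, 138, 113 and 135 in WT myoblasts and 453, 381, 572 and 391 in WT myotubes, against 683, 922, 757 and 830.1 in Fam134bKO myoblasts and 513, 492, 515 and 669 in Fam134bKO myotubes. The knockout myoblasts were the highest of the groups and the WT myoblasts the lowest, and the groups of myotubes overlapped. Its interaction was -2.29 (SE 0.23, adjusted p = 1.4e-06), from a change of 1.75 in WT and -0.55 in Fam134bKO. Asns, asparagine synthetase, had normalized counts of 469.7, 435, 472 and 485 in WT myoblasts and 736, 797, 791 and 559 in WT myotubes, against 1404, 1189.6, 1398 and 1297 in Fam134bKO myoblasts and 596, 763, 767 and 581 in Fam134bKO myotubes. All 4 knockout myoblast libraries were above every other library, and myotubes of both genotypes overlapped. The interaction was -1.59 (SE 0.21, adjusted p = 7.2e-05).

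Aldh1l2, a mitochondrial enzyme of folate metabolism, had normalized counts of 77.5, 84.9, 85.1 and 76.6 in WT myoblasts and 252, 130.4, 189.6 and 190.2 in WT myotubes, against 359, 401, 369 and 361 in Fam134bKO myoblasts and 198, 209, 262 and 128 in Fam134bKO myotubes. Acot2, a mitochondrial acyl-CoA thioesterase, had normalized counts of 184, 112, 167 and 215 in WT myoblasts and 440.3, 539, 511 and 359.6 in WT myotubes, against 552, 523, 608 and 449 in Fam134bKO myoblasts and 343, 368, 222 and 278 in Fam134bKO myotubes. Aldh1l2 converged in myotubes, where the groups overlapped. Acot2 crossed, with a level in Fam134bKO of 315% of WT in myoblasts and 65.4% in myotubes, both called. The interactions were -2.13 (SE 0.29, adjusted p = 7.8e-05) and -2.30 (SE 0.29, adjusted p = 2.7e-05). Pde4b, a cyclic AMP phosphodiesterase, had normalized counts of 49.8, 51.1, 40.03 and 54.4 in WT myoblasts and 94.1, 89.1, 85.5 and 64.4 in WT myotubes, against 157, 188, 142 and 159 in Fam134bKO myoblasts and 90.04, 62.7, 82.8 and 112 in Fam134bKO myotubes. It too was highest in knockout myoblasts and overlapped in myotubes (interaction -1.66, SE 0.28, adjusted p = 0.0011). The glutathione-degrading enzyme Chac1 had an interaction of -1.502, and Pck2, a mitochondrial enzyme that was named after its values were seen, one of -1.55.

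Over the whole list of 30 Atf4 and Chop targets, the median change was 0.89 in WT and -0.24 in Fam134bKO, and the median interaction of -0.93 kept its sign in all 29 alternative fits. In WT, 17 members rose and 0 fell, while in Fam134bKO 4 rose and 8 fell. In myoblasts 16 were higher and 2 lower in Fam134bKO, and in myotubes 5 were higher and 6 lower. Over all genes tested, 13.8% rose and 9.16% fell in WT, and 17.3% rose and 16.1% fell in Fam134bKO. The genotypes differed in either direction for 15.8% of all genes in myoblasts and 23.4% in myotubes. The other called members were Psph, the last enzyme of serine synthesis (interaction -1.48), Gpt2 (-1.25), Pycr1 (-1.14) and Shmt2 (-1.01). Atf4 itself had a change of 0.50 in WT and -0.43 in Fam134bKO and was not called (adjusted p = 0.11), nor was Ddit3, which encodes Chop (interaction -0.78, adjusted p = 0.097).

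The upstream sequences of Asns and Chac1 are shown because their 200 bases hold TGATGNAA, the core of the element that Atf4 binds with a C/EBP partner, searched on both strands after the data were seen. The same stretch of Trib3 and of Acot2 held no match. They are again the 200 bases before the RefSeq start in GRCm38.p6, 5′ to 3′ on the gene's strand, with the match in capitals (in Chac1 it lies on the other strand).
Asns, chr6:7693210-7693409, - strand: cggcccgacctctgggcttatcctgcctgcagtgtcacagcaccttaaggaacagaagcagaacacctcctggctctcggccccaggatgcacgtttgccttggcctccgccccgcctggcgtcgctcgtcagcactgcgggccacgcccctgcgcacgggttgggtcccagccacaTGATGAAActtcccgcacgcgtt
Chac1, chr2:119351042-119351241, + strand: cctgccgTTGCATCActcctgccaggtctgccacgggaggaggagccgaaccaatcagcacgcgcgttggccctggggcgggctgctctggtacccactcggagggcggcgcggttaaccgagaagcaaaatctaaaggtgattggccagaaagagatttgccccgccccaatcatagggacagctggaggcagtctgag
In the promoters of 300 bases the motif was in 4 of 10 reversed genes that rose in WT (Asns, Chac1, Pck2 and Trib3) and in 179 of 8627 of all tested genes (2.07%). Asns, Chac1 and Trib3 also belong to the list of Atf4 and Chop targets, so that this share is not evidence apart from that list.

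**Figure D2:**
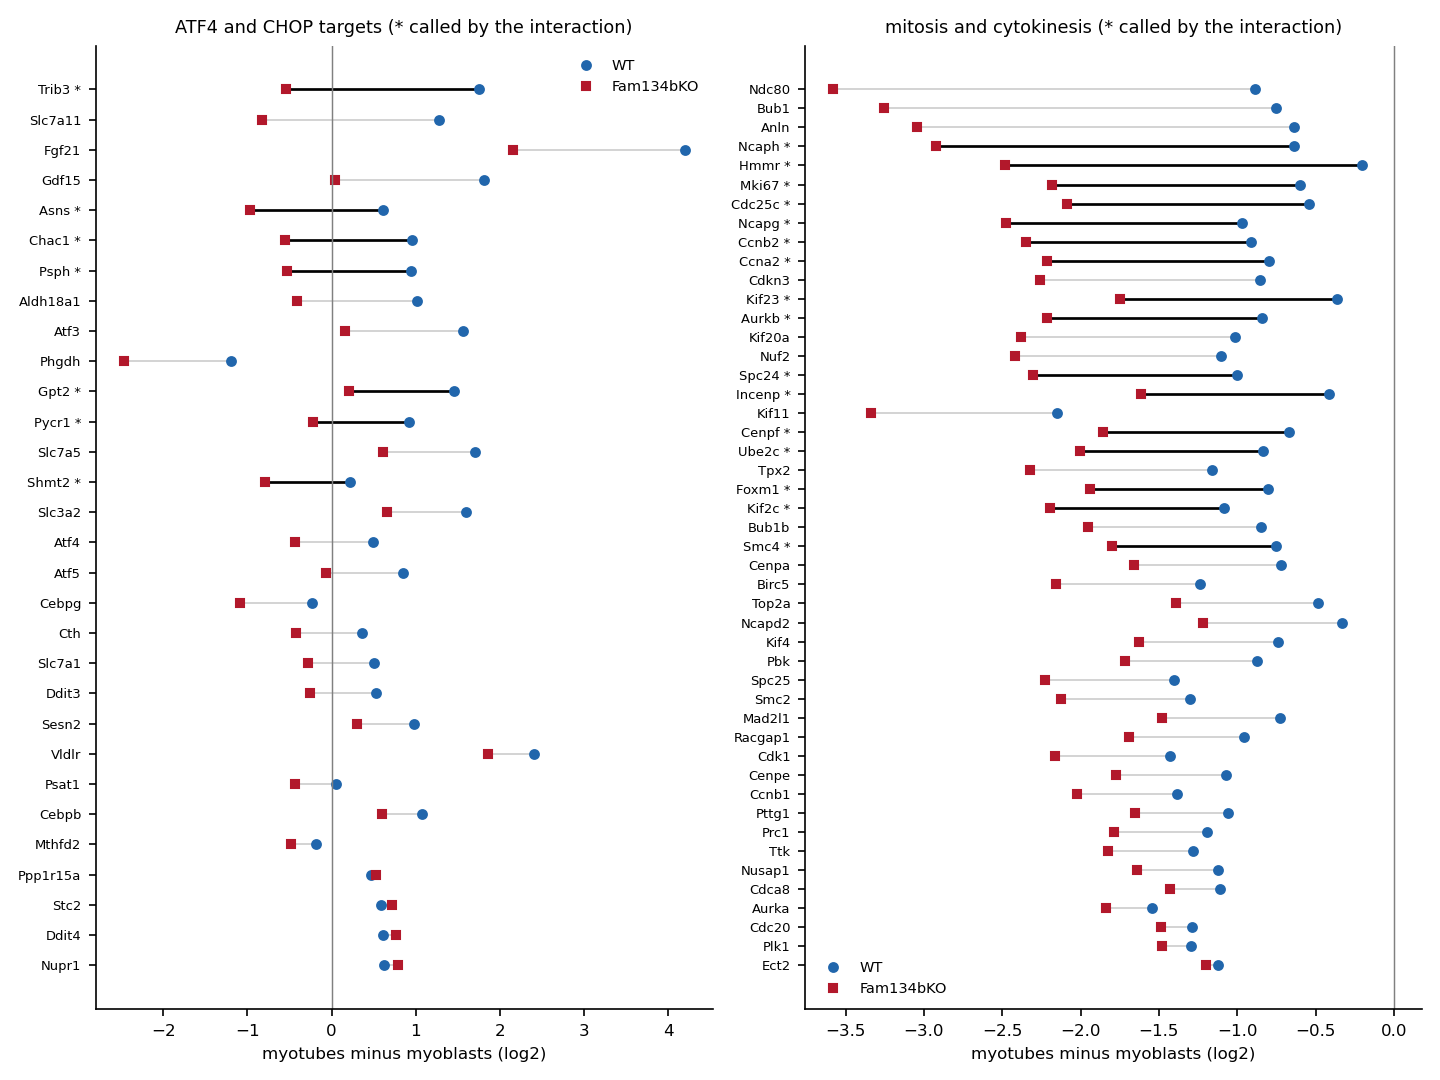
Change from myoblasts to myotubes (log2) of each tested gene of 2 lists, with WT as circles and Fam134bKO as squares. An asterisk and a black line mark genes called by the interaction. Among 30 Atf4 and Chop targets the squares lie left of the circles for 26, and among 47 mitosis genes for 47.

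The other 6 reversed genes fell in WT and rose in Fam134bKO. Atp6v1a, the catalytic subunit of the lysosomal proton pump, was one and the only called gene of 58 in the list of autophagy and lysosome (1.72%, below the 3.45% of all genes). Atp6v1a had normalized counts of 648, 629.8, 508 and 545 in WT myoblasts and 439, 479, 377 and 374 in WT myotubes, against 565, 650.0, 560.4 and 479.7 in Fam134bKO myoblasts and 861, 951, 844 and 895 in Fam134bKO myotubes. Myoblasts of both genotypes overlapped, and in myotubes all 4 knockout libraries were above all 4 WT libraries. The interaction was 1.14 (SE 0.20, adjusted p = 0.0017).

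A weaker change in Fam134bKO was called for 11 genes, all of which rose. They included structural and mitochondrial genes of muscle. Actn2, the alpha-actinin of the Z-disc, had normalized counts of 0.923, 0, 0 and 0 in WT myoblasts and 122, 86.4, 122 and 71.3 in WT myotubes, against 0 in all 4 libraries of Fam134bKO myoblasts and 13.6, 0, 10.8 and 17.98 in Fam134bKO myotubes. A single read was found in the 8 myoblast libraries, and in myotubes every knockout library was below every WT library, with no read in replicate 2. The WT mean rose 435-fold (95% counting interval 78.03 to 17172, from 1 read) and the Fam134bKO mean at least 4.14-fold, with an interaction of -3.47 (SE 0.95, adjusted p = 0.046) that was not called in 17 of 31 alternative fits. Cox6a2, the muscle isoform of a cytochrome c oxidase subunit, had normalized counts of 14.8, 25.1, 20.01 and 13.4 in WT myoblasts and 428, 355, 637 and 402 in WT myotubes, against 35.9, 38.2, 37.3 and 37.5 in Fam134bKO myoblasts and 114, 58.4, 202 and 192 in Fam134bKO myotubes. Knockout myotubes lay between the myoblasts and the WT myotubes (interaction -2.82, SE 0.43, adjusted p = 3.4e-04).

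Slc5a5, the sodium iodide symporter, had normalized counts of 1.85, 1.93, 1.001 and 0.891 in WT myoblasts and 141, 70.2, 116 and 104 in WT myotubes, against 2.62, 1.66, 2.603 and 0.834 in Fam134bKO myoblasts and 26.1, 21.9, 11.7 and 27.97 in Fam134bKO myotubes. It was near 0 in myoblasts and lower in all knockout than in all WT myotubes (interaction -2.53, SE 0.54, adjusted p = 0.0096). Sorbs2, an adaptor protein of the cytoskeleton, had normalized counts of 2.77, 3.86, 1.001 and 2.67 in WT myoblasts and 166, 29.7, 103 and 63.4 in WT myotubes, against 39.4, 61.4, 33.8 and 40.9 in Fam134bKO myoblasts and 91.01, 58.4, 121 and 129.9 in Fam134bKO myotubes. Here the genotypes overlapped in myotubes, and the knockout myoblasts were far above the WT myoblasts (interaction -3.35, SE 0.58, adjusted p = 0.0014). Col6a2, a chain of collagen VI, rose 16.6-fold in WT and 3.83-fold in Fam134bKO from a knockout level that exceeded WT at both stages (interaction -2.06), and in normalized counts its rise was larger in Fam134bKO, 1136 against 365. Herpud1, an ER protein of misfolded protein degradation, was the only called gene of 35 ER chaperone and unfolded protein response genes (2.86%, beside 3.45% of all genes tested). It rose 4.902-fold in WT and 1.83-fold in Fam134bKO (interaction -1.38, SE 0.35, adjusted p = 0.03), and was not called in 10 of 31 alternative fits, some of which left out a single library.

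A change called in WT and not in Fam134bKO was found for 52 genes, 33 that rose in WT and 19 that fell. Of the 33, 22 were higher in Fam134bKO myoblasts and 15 lower in Fam134bKO myotubes, counts that the choice of genes by the interaction partly sets. Hey1, a transcriptional repressor downstream of Notch, had normalized counts of 12.9, 6.75, 19.01 and 26.7 in WT myoblasts and 67.3, 52.2, 83.6 and 77.3 in WT myotubes, against 10.5, 15.8, 19.1 and 9.18 in Fam134bKO myoblasts and 7.75, 20.4, 6.298 and 1.998 in Fam134bKO myotubes. The myoblasts overlapped, and all knockout myotubes were below all WT myotubes (interaction -2.98, SE 0.67, adjusted p = 0.014). Col5a3, a chain of collagen V, had normalized counts of 86.7, 43.4, 64.05 and 36.5 in WT myoblasts and 535, 276, 349 and 274 in WT myotubes, against 143, 55.6, 167 and 120.1 in Fam134bKO myoblasts and 178, 279, 84.6 and 73.9 in Fam134bKO myotubes. In knockout cells the stages overlapped (interaction -2.40, SE 0.54, adjusted p = 0.015).

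Txnip, a glucose-responsive inhibitor of thioredoxin, had normalized counts of 9.23, 3.86, 4.003 and 9.803 in WT myoblasts and 69.1, 21.6, 33.5 and 52.5 in WT myotubes, against 61.2, 115, 51.2 and 50.1 in Fam134bKO myoblasts and 140.4, 45.2, 112 and 15.99 in Fam134bKO myotubes. The knockout values were widely spread in myotubes, and the interaction of -2.68 (SE 0.73, adjusted p = 0.046) was close to the threshold and was not called in 17 of 31 alternative fits. Plac8, a gene that fell in WT, had normalized counts of 83.05, 97.4, 93.1 and 145 in WT myoblasts and 31.1, 41.4, 31.6 and 45.6 in WT myotubes, against 2.62, 3.32, 4.34 and 1.67 in Fam134bKO myoblasts and 8.71, 7.296, 9.896 and 1.998 in Fam134bKO myotubes. Knockout libraries were below WT libraries at both stages (interaction 2.34, SE 0.53, adjusted p = 0.015).

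The largest class, 177 genes, changed in Fam134bKO with no called change in WT. Of these 101 rose and 76 fell. Among the 101, 62 were lower in Fam134bKO myoblasts and 43 were higher in Fam134bKO myotubes, while among the 76, 25 were higher in Fam134bKO myoblasts and 51 lower in Fam134bKO myotubes. Differences called in myoblasts alone were found for 53 of the 177 and in myotubes alone for 84. Here too the choice of genes by the interaction partly sets the counts.

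Osr2, a zinc finger transcription factor, had normalized counts of 5.54, 7.72, 3.002 and 5.35 in WT myoblasts and 6.91, 8.096, 7.43 and 7.93 in WT myotubes, against 0.875, 9.96, 4.34 and 4.17 in Fam134bKO myoblasts and 81.3, 81.7, 62.1 and 53.95 in Fam134bKO myotubes. All knockout myotubes were above all other libraries, which overlapped, and the interaction was 3.36 (SE 0.61, adjusted p = 0.002). Mgp, matrix Gla protein, an inhibitor of calcification, had normalized counts of 908, 864, 735 and 712 in WT myoblasts and 603, 679, 445 and 700.4 in WT myotubes, against 682, 969, 816 and 820.1 in Fam134bKO myoblasts and 3519, 3695, 3035 and 3331 in Fam134bKO myotubes. It rose 4.13-fold in Fam134bKO alone (interaction 2.47, SE 0.23, adjusted p = 5.5e-07), with no overlap between knockout myotubes and the rest. Frmpd1 had normalized counts of 161, 117, 116 and 108 in WT myoblasts and 136, 209, 191 and 183 in WT myotubes, against 1.75, 0, 1.74 and 0 in Fam134bKO myoblasts and 35.8, 13.1, 30.6 and 29.97 in Fam134bKO myotubes. It was nearly absent from knockout myoblasts, rose 31.4-fold (95% counting interval 12.3 to 115, from 4 reads), and stayed below every WT library (interaction 3.49, SE 0.51, adjusted p = 2.1e-04).

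The collagen and matrix lists were mixed. Of 20 collagen genes 3 were called (15%): besides Col5a3 and Col6a2, Col8a1 rose 2.33-fold in WT and 7.28-fold in Fam134bKO (interaction 1.75). Of 56 genes of other matrix proteins and proteases 2 were called (3.57%, beside 3.45% of all genes tested), Mgp and the laminin chain Lamb1 (1.59). The brain creatine kinase Ckb, with 18% of its 3′ sequence shared with other genes, rose in Fam134bKO from 7.42% of the WT myoblast level to 51.9% of the WT myotube level (interaction 2.73). Aldh3a1, an aldehyde dehydrogenase, was the only called gene of 21 NRF2 targets (4.76%, beside 3.45% of all genes tested), higher in Fam134bKO at both stages and more so in myotubes (1.60).

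Among genes that fell in Fam134bKO alone were Sprr1a and Gapdh, with the largest interactions of that kind above a normalized count of 50. Sprr1a, a protein of the cornified envelope, had normalized counts of 32.3, 33.8, 35.03 and 40.99 in WT myoblasts and 21.6, 37.8, 13.01 and 17.8 in WT myotubes, against 52.5, 65.6, 42.5 and 79.3 in Fam134bKO myoblasts and 11.6, 0, 10.8 and 0 in Fam134bKO myotubes. It was at 0 in the shallow replicates 2 and 4 of knockout myotubes (interaction -3.36, SE 0.90, adjusted p = 0.042). With values raised to 3 reads the interaction was -2.05 (adjusted p = 0.013), and it was not called in 19 of 30 alternative fits. Gapdh, a glycolytic enzyme, had normalized counts of 231, 407, 418 and 122 in WT myoblasts and 91.5, 182, 195 and 258 in WT myotubes, against 297, 607, 163 and 556 in Fam134bKO myoblasts and 59.1, 18.97, 28.8 and 9.99 in Fam134bKO myotubes. Since 45% of its 3′ sequence is shared with other annotated genes, reads could be split between copies and its values are uncertain (interaction -3.21, SE 0.67, adjusted p = 0.0086).

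Genes of mitosis fell further in Fam134bKO. Of 47 tested genes of mitosis and cytokinesis 16 were called (34.0%, beside 3.45% of all genes tested), all more negative in Fam134bKO. The median change was -0.91 in WT and -2.002 in Fam134bKO. In WT 34 of the 47 fell, and in Fam134bKO 47, beside 9.16% and 16.1% of all genes tested. In myoblasts 0 were higher and 2 lower in Fam134bKO, and in myotubes 38 were lower. Over all genes tested, 15.8% in myoblasts and 23.4% in myotubes differed in either direction. The number called was 7 to 21 without single libraries (7 without WT myoblasts replicate 3, 8 without its replicate 2 or Fam134bKO myoblasts replicate 1 or 3, 9 without replicate 1 of WT or 4 of Fam134bKO myoblasts, and 10 without WT myotubes replicate 2) and 15 without the 2 shallow libraries, and the median interaction of -1.10 kept its sign in all 29 alternative fits.

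Hmmr, a spindle protein, had normalized counts of 169.8, 131, 139 and 98.9 in WT myoblasts and 143, 86.4, 111 and 127 in WT myotubes, against 199, 214, 190.0 and 146 in Fam134bKO myoblasts and 47.4, 16.1, 47.7 and 29.97 in Fam134bKO myotubes. Mki67, the proliferation marker Ki-67, had normalized counts of 323, 332, 359 and 205 in WT myoblasts and 159, 223, 255 and 163 in WT myotubes, against 302, 222, 320.1 and 222 in Fam134bKO myoblasts and 45.5, 45.2, 75.6 and 67.9 in Fam134bKO myotubes. In both genes, knockout myotubes lay below every other library, while WT and knockout myoblasts overlapped. The interactions were -2.28 (SE 0.39, adjusted p = 0.0012) and -1.58 (SE 0.32, adjusted p = 0.0055), and 11% of the 3′ sequence of Mki67 is shared with other genes. The condensin subunit Ncaph (-2.29) and the phosphatase Cdc25c (-1.55) were also called.

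Of 48 tested genes of DNA replication 5 were called as more negative, among them the helicase subunits Mcm5 (-1.54) and Mcm6 (-1.48) and the replication factor Gins1 (-2.93), and 1, E2f2, as more positive (1.65), 12.5% in all. The median change was -0.92 in WT and -1.72 in Fam134bKO. In myotubes 27 of the 48 were lower in Fam134bKO and 0 higher, beside 23.4% of all genes tested that differed there in either direction. The count of 6 fell to 2 without Fam134bKO myoblasts replicate 4 and to 3 without replicate 1, 3 or 4 of WT myoblasts. Of 24 cholesterol synthesis genes 3 were called (12.5%), all more negative: Lss (-1.91), Pmvk (-1.58) and the transcription factor Srebf2 (-1.09). Among 29 p53 targets and cell cycle inhibitors, Cdkn2c was called as more negative (-1.10) and Zmat3 as more positive (0.94), 6.90% in all beside 3.45% of all genes tested.

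**Figure D3:**
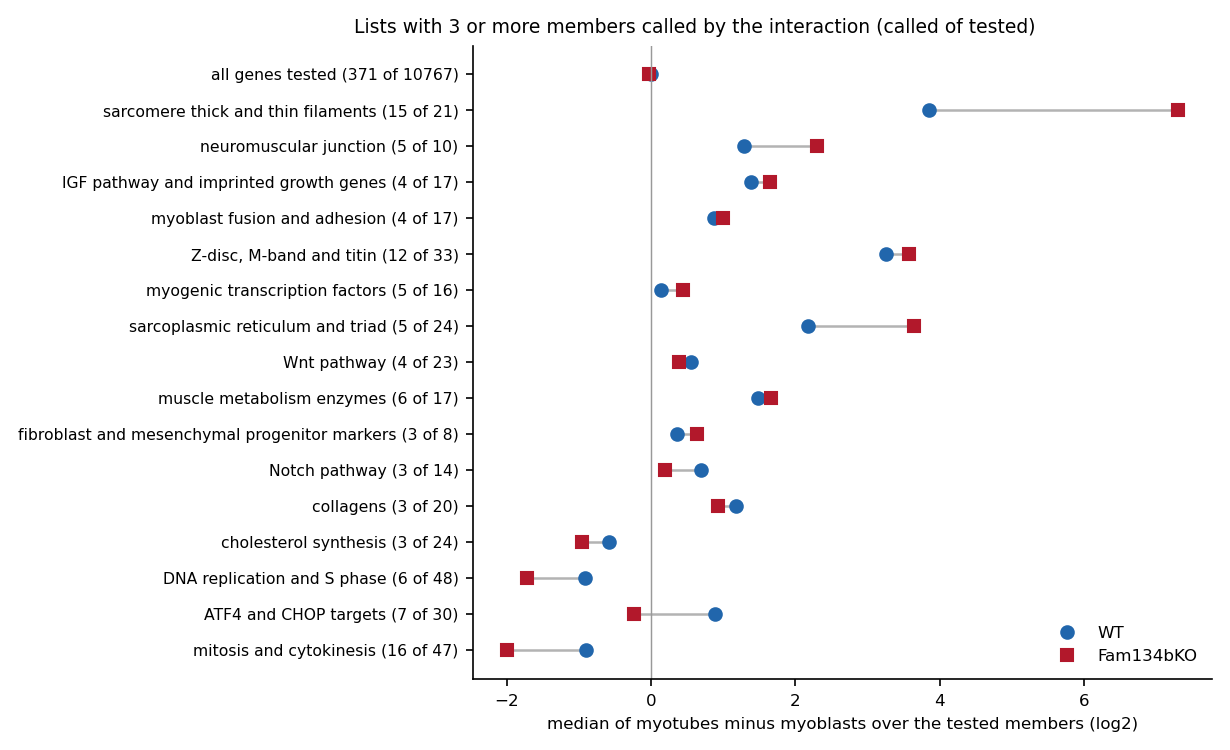
Median change from myoblasts to myotubes (log2) over the tested members of each list with 3 or more genes called by the interaction, WT as circles and Fam134bKO as squares, with all genes tested in the top row. Thick and thin filament genes stand apart with 3.85 in WT and 7.31 in Fam134bKO, and the Atf4 and Chop targets are the list whose medians lie on opposite sides of 0.

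The list of ER-phagy and ER shaping and that of ER chaperones (2.86%) held called genes about as often as all genes (3.45%). The list of the sarcoplasmic reticulum and triad held more (20.8%). Of 23 tested ER-phagy receptors and ER-shaping genes 1 was called (4.35%). Reep6, which shapes ER tubules, had normalized counts of 14.8, 13.5, 12.01 and 11.6 in WT myoblasts and 17.3, 26.99, 24.2 and 16.8 in WT myotubes, against 22.7, 38.2, 27.8 and 32.5 in Fam134bKO myoblasts and 6.78, 8.76, 5.398 and 5.99 in Fam134bKO myotubes. Knockout myoblasts were above WT myoblasts, and knockout myotubes were below every other library. The interaction was -2.67 (SE 0.42, adjusted p = 5.1e-04). The other 22 genes, among them the relatives Fam134a and Fam134c and the receptors Ccpg1, Tex264, Sec62, Rtn3, Atl3 and Calcoco1, were not called. Fam134c had the next largest interaction, -2.29 (SE 0.96, adjusted p = 0.21), and was not called.

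Smaller signalling lists gave a few genes each. In the Notch list 3 of 14 were called (21.4%): Hey1, the glycosyltransferase Lfng (-1.99) and the repressor Hes6 (0.97). In the Wnt list 4 of 23 were called (17.4%), the ligand Wnt4 (-1.88) and the receptor Lgr4 (-2.11) as more negative and the receptor Lgr6 (2.41) and the transcription factor Lef1 (1.67) as more positive, but only 1 or 2 stayed called without any of 8 single libraries (all but replicate 4 of WT myoblasts, all but replicate 2 of Fam134bKO myoblasts, and replicates 3 and 4 of WT myotubes). The TGF-beta repressor Ski (1.12) was the only one called of 30 in its list, 3.33% beside 3.45% of all genes tested. Of 8 tested fibroblast and progenitor markers 3 were called, Cd34 (2.06) and Tcf4 (1.07) as more positive and Ly6a (-1.76) as more negative, and of 11 smooth muscle genes Actg2 (-0.95). None of 19 interferon and antigen presentation genes was called, nor any of the tested adipocyte (8), cartilage and bone (3), leukocyte (2), endothelial (2) or neural (6) genes. With 3.45% of all genes tested called, lists this short can lack a call without differing from the rest.

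The 371 genes could also be sorted by the stage at which the genotypes differed. The difference was called in myoblasts alone for 105, in myotubes alone for 147, at both stages with the same sign for 95, at both with opposite signs for 21 and at neither stage for 3. The larger of the genotype differences lay in myoblasts for 212 genes and in myotubes for 159. By class, it lay in myoblasts for 76 of 114 stronger and 14 of 17 reversed genes, for 6 of 11 weaker ones, 30 of 52 called in WT alone and 86 of 177 called in Fam134bKO alone. These counts restate the interaction from its other side, since it equals the genotype difference in myotubes minus that in myoblasts in the same samples.

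**Figure D4:**
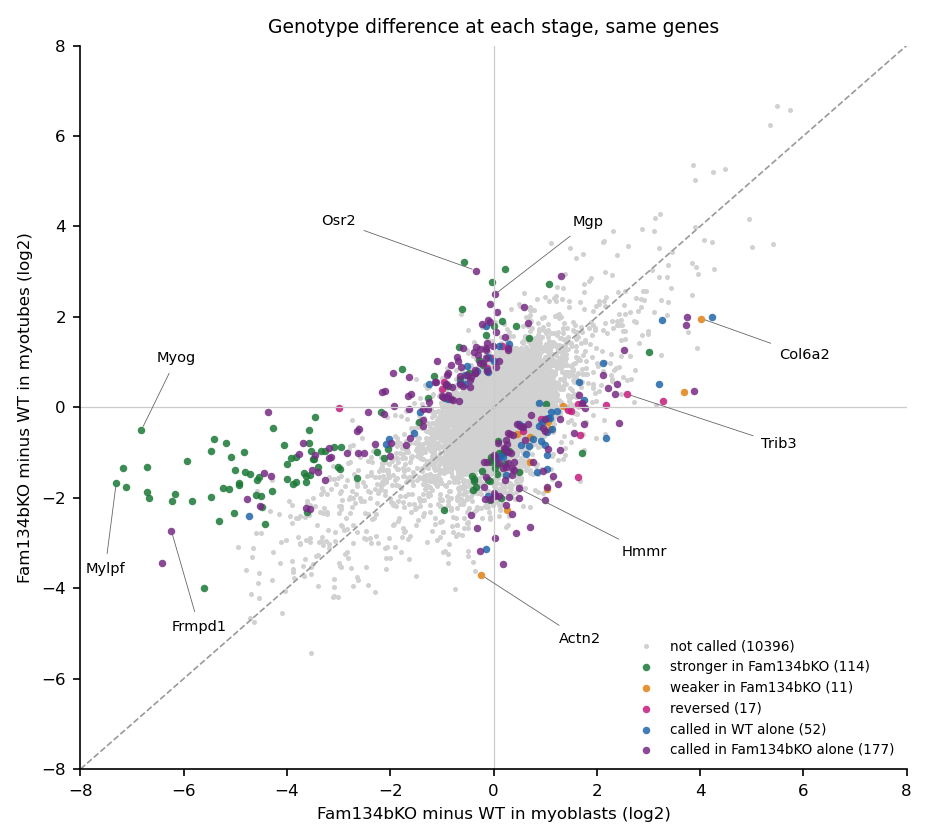
Difference between Fam134bKO and WT in myoblasts (x axis, log2) against that in myotubes (y axis, log2), 1 point per gene, with the dashed line at equal difference. Stronger genes such as Myog and Mylpf lie far left and closer to 0 on the y axis, while genes such as Actn2, Hmmr, Osr2 and Mgp lie near 0 on the x axis and part in myotubes.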

How the data were processed

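Messenger RNA of 16 C2C12 samples was sequenced by a digital single-end method. According to the submitters' processing notes, reads were demultiplexed with bcl2fastq, aligned to mm10 with STAR 2.6.0a and counted per gene with HTSeq; the notes also cover trimming and removal of ribosomal reads. The deposited values are log2(normalized count + 1) from the authors, in 1 table of 31053 genes, and the scaling tool is not given in the sources used here. Every value came out as a whole number of reads within a tolerance of 0.1 read, which gave 1484750 to 3287461 reads per library and a floor of 3 reads between 2.49 and 5.99 normalized counts. Of 74 rows without a symbol, 64 were named from GENCODE.

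Groups were taken from the sample titles, which give genotype and stage. For the 10767 genes that reached 10 normalized counts in 4 or more samples, limma 3.58.1 in R 4.3.3 (lmFit, contrasts.fit, eBayes with trend) fitted 4 group means to the deposited log2 values, with pseudocount 1. The interaction, both differentiation changes and both genotype differences were tested over all of these genes and called where the p, adjusted by Benjamini-Hochberg, was under 0.05. Calls were sorted into stronger, weaker, reversed, WT alone and Fam134bKO alone by the call and sign of each genotype's own change. A change is a difference of log2(normalized count + 1), which understates changes of low genes, while a fold is a ratio of mean normalized counts. The script was tested on simulated data.

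Genes were named by a rule: in each class the 4 largest interactions with a group mean of at least 50, up to 4 called members of each list, Fam134b and the markers; genes outside it are named to complete a list's calls or as examples of members not called. The members, lists and rules were chosen with earlier results of these data known. Promoters came from RefSeq (GRCm38.p6) and matched 8627 of the genes tested; the share of a gene's 3′ sequence that other genes hold was counted in 31-base words. Alternatives covered scaling, pseudocount, filter, weights, thresholds, a count-based limma voom fit on recovered reads, a replicate block and single libraries left out.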

Additional observations from a re-analysis of the deposited data

Results flagged for a closer look

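A difference between the genotypes in the change with differentiation, tested by the interaction itself in limma, was called for 371 genes. Among the genes named here, the interaction log2 differences (Fam134bKO change minus WT change) were as follows. The named genes with a stronger change in Fam134bKO had interactions of 6.32 for Myog, 5.84 for Synpo2l, 5.64 for Mylpf, 5.39 for Tmem8c, 5.36 for Tnnc2, 4.84 for Tnni1, 4.75 for Ttn, 4.71 for Dok7, 4.66 for Mb, 4.51 for Klhl40, 4.38 for Acta1, 3.80 for Il33, 3.504 for Ckm and 3.39 for Myod1. To these were added 3.26 for Chrnd, 3.26 for Socs2, 3.24 for Gm7325, 2.98 for Atp2a1, 2.80 for Greb1, 2.79 for Dio2, 2.66 for Jsrp1, 2.54 for Igf2, 2.45 for Cox8b, 2.37 for Chrna1, 2.36 for Chrng, 2.27 for Igfbp5, 2.07 for Cacng1 and -1.91 for Lss. To these were added 1.75 for Col8a1, 1.65 for Igf1, -1.58 for Pmvk, -1.54 for Mcm5, -1.48 for Mcm6, 1.31 for H19, 1.13 for Mef2a and -0.95 for Actg2. Those with a weaker change had interactions of -3.47 for Actn2, -3.35 for Sorbs2, -2.82 for Cox6a2, -2.53 for Slc5a5, -2.06 for Col6a2 and -1.38 for Herpud1. Genes that moved in opposite directions had interactions of -2.30 for Acot2, -2.29 for Trib3, -2.13 for Aldh1l2, -1.66 for Pde4b, -1.59 for Asns, -1.502 for Chac1 and 1.14 for Atp6v1a. Among genes called in WT alone, the interactions were -2.98 for Hey1, -2.68 for Txnip, -2.40 for Col5a3, 2.34 for Plac8, -1.86 for Tead4, -1.48 for Psph, -1.33 for Dysf and 1.33 for Cadm1. Among genes called in Fam134bKO alone, they were 3.49 for Frmpd1, 3.36 for Osr2, -3.36 for Sprr1a, -3.21 for Gapdh, -2.93 for Gins1, 2.73 for Ckb, -2.67 for Reep6, 2.47 for Mgp, 2.41 for Lgr6, -2.29 for Ncaph, -2.28 for Hmmr, -2.11 for Lgr4, 2.06 for Cd34 and -1.99 for Lfng. To these were added -1.88 for Wnt4, 1.84 for Mrln, -1.76 for Ly6a, 1.67 for Lef1, 1.65 for E2f2, 1.60 for Aldh3a1, 1.59 for Lamb1, -1.58 for Mki67, -1.55 for Cdc25c, 1.45 for Rpl37, 1.25 for Hist1h1c, 1.24 for Rpl27, 1.12 for Ski and -1.10 for Cdkn2c. To these were added -1.09 for Srebf2, 1.07 for Tcf4, 0.97 for Hes6 and 0.94 for Zmat3.

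In 82 groups of 4 values of 21 genes, 4 samples lay far from the other 3 by Dixon's test at the 95% level, which chance flags in about 1 of 20 groups. Trib3 had a normalized count of 669 in Fam134bKO myotubes replicate 4, the shallowest library. Tmem8c had 2629 in WT myotubes replicate 3. Actn2 had 0.923, a single read, in WT myoblasts replicate 1, and 0 in Fam134bKO myotubes replicate 2, while the other 3 libraries of that group held 13.6, 10.8 and 17.98.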

How the results depend on the processing

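The 371 interactions kept their sign under every alternative run (326 of 326 with a value at a minimum of 50), and 253 were called in all 10 alternatives of scaling, weighting and pseudocount. The totals were 353 with limma voom on recovered reads, 393 with total scaling, 373 with quantile normalization, 371 with median-ratio scaling, 361 at a minimum of 50, 373 with no filter, 360 and 406 with pseudocounts 0.5 and 5, 380 with group weights, 440 with values raised to 3 reads, and 396 without the 2 shallow Fam134bKO myotube libraries, a setting chosen after seeing the data. Sample weights gave 1221 calls, 618 more positive and 603 more negative, with 104 reversed, 253 stronger, 32 weaker, 316 in WT alone and 494 in Fam134bKO alone, 4683 for differentiation in WT and 3773 for the genotype difference in myoblasts. Group weights gave 2812 genotype differences in myoblasts and 1523 in myotubes. The weaker class held 23 genes with pseudocount 5, 20 with quantile normalization and 25 with values raised to 3 reads, the class in WT alone 82 with no filter and 80 with values raised to 3 reads, and the reversed class 26 without the shallow libraries. The cause was not tested.

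At an adjusted p under 0.01 the interaction held 141 genes, 96 more positive and 45 more negative, with 6 reversed, 61 stronger, 5 weaker, 14 in WT alone and 54 in Fam134bKO alone, and the other comparisons held 1269 (differentiation in WT), 2216 (in Fam134bKO), 1041 (genotype in myoblasts) and 1349 (in myotubes). With an absolute log2 difference of at least 1 they held 1259, 1994, 1018 and 1379, and the classes 3 reversed, 7 weaker and 34 in WT alone.

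Without single libraries the interaction held 231 to 521 genes (148 to 292 more positive, 83 to 231 more negative), with 11 to 37 reversed, 81 to 140 stronger, 7 to 16 weaker, 26 to 91 in WT alone and 89 to 262 in Fam134bKO alone. Differentiation held 1564 to 2949 genes in WT and 2837 to 3723 in Fam134bKO, and genotype 1336 to 1942 in myoblasts and 1823 to 2656 in myotubes. Among lists with under 4 called genes, the count ran from 0 to 6 for ribosomal proteins, 0 to 4 for p53 targets, 0 to 3 for smooth muscle markers, 0 to 2 for ER chaperones, 1 to 3 for NRF2 targets and histones, and 2 to 4 for the Notch and cholesterol lists. Of 2754 values of the 89 called named genes under the alternatives, 2434 kept their call and 320 lost it; the call was lost most often for Mrln (20 of 31), Sprr1a (19 of 30), Actn2, Txnip and Actg2 (17 of 31 each), Cadm1 and Rpl37 (16 of 31 each), Ncaph and H19 (15 of 31 each), Lfng (15 of 30), Rpl27 (14 of 31), Lgr4 (12 of 31), Igf1 (11 of 31), Lgr6 (11 of 30) and Herpud1 (10 of 31).

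A replicate block on the numbers in the titles gave 358 calls, 327 of them among the 371. Samples that share a number had a mean correlation of deviations of 0.033, with 10 of 24 pairs over 0.1, and 4 of 16 samples correlated best with their own number, so the numbers were not taken as pairs. Depth limited genes near 0 in knockout myoblasts, whose log2 interaction depends on the pseudocount and whose folds are bounds or have wide counting intervals, and replicates 2 and 4 of the knockout myotubes, the shallowest and most spread libraries.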

Other observations

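The 4 genes here were chosen after their values were seen, and Il33, Dio2 and Greb1 were highest in knockout myotubes, from low levels in myoblasts of both genotypes. Il33, a cytokine of the interleukin-1 family, had normalized counts of 11.1, 17.4, 13.01 and 6.24 in WT myoblasts and 78.6, 28.8, 32.5 and 37.6 in WT myotubes, against 5.25, 5.81, 8.68 and 10.01 in Fam134bKO myoblasts and 459.9, 309, 306 and 528 in Fam134bKO myotubes. Knockout myotubes lay above every other library. Its interaction was 3.80 (SE 0.48, adjusted p = 3.0e-05). Dio2, the enzyme that activates thyroid hormone, had normalized counts of 0, 0, 1.001 and 1.78 in WT myoblasts and 50.1, 13.5, 27.9 and 22.8 in WT myotubes, against 0 in all 4 libraries of Fam134bKO myoblasts and 159, 108, 156 and 75.9 in Fam134bKO myotubes. Greb1, a cofactor of steroid hormone receptors, had normalized counts of 0, 2.89, 0 and 0 in WT myoblasts and 12.95, 7.197, 13.9 and 5.94 in WT myotubes, against 0.875, 0, 0.868 and 0 in Fam134bKO myoblasts and 62.9, 81.7, 77.4 and 59.9 in Fam134bKO myotubes. Both were at 0 to 3 reads in each myoblast library, and in both all knockout myotubes were above all WT myotubes. The means of Dio2 rose 41.05-fold (95% counting interval 14.05 to 199, from 3 reads) in WT and at least 48.8-fold in Fam134bKO, and those of Greb1 13.8-fold (95% counting interval 4.73 to 67.1, from 3 reads) and 162-fold (95% counting interval 44.8 to 1336, from 2 reads). Socs2, an inhibitor of cytokine signalling with 14.4% of its 3′ sequence shared with other genes, was called as stronger, with 8.799% of the WT level in knockout myoblasts and 85.6% in knockout myotubes (interaction 3.26, SE 0.24, adjusted p = 1.1e-08).

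Of 78 tested ribosomal protein genes 2 were called (2.56%, beside 3.45% of all genes tested), Rpl37 (1.45) and Rpl27 (1.24), both with 3′ sequence shared with other genes (18.5% and 33.3%), while 59 of the 78 interactions were above 0, beside 5070 of 10767 over all genes tested. Their median change was -0.41 in WT and 0.04 in Fam134bKO. In myotubes 20 were higher and 3 lower in Fam134bKO, and in myoblasts 0 were higher and 1 lower. Over all genes tested, 23.4% in myotubes and 15.8% in myoblasts differed in either direction. The count called was 24 with sample weights. Of 85 nuclear-encoded genes of oxidative phosphorylation 2 were called (2.35%, beside 3.45% of all genes tested), Cox6a2 and Cox8b (2.45), and of 34 histone genes 1 was called (2.94%), Hist1h1c (1.25).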
